A study of Drosophila melanogaster with 31 samples.

Results

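A set of 115 genes, of 11982 genes with a value, was lower in *ato*GFP+ cells than in *ato*GFP- cells of wild-type *Drosophila* embryos at each of 3 developmental times. Each gene was represented by the probe set that names it alone and has the highest mean over all 31 arrays. For each time, E is the mean log2 intensity of the wild-type GFP+ arrays minus that of the wild-type GFP- arrays, so that a negative E is a depletion from the sorted cells. A gene was a member when E was at or below -1 at t1 and at t2 and at or below -0.585 at t3, which is at least 2-fold lower at the first times and 1.5-fold lower at the last. The members were thus chosen by the wild-type values of E, which are given here as a description and carry no test. The mutant arrays, and the mean of both fractions at each time, were not used in that way and were tested.

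The cells came from dissociated embryos carrying *ato*GFP.7, a single transgenic line in which an upstream fragment of *ato* drives GFP. Flow cytometry separated GFP+ and GFP- cells, each harvested from its own region of the sort. Wild-type embryos have the genotype atoGFP.7;w118 in the labels, and mutant embryos atoGFP.7;ato(mutant);w118, so reporter and background marker were common to all groups. The allele is *ato*1, a presumed null, and the mutant line had been backcrossed to the reporter stock. Times after egg laying were 5.75 to 6.75 hours for t1, 6.75 to 7.75 hours for t2 and 7.75 to 8.75 hours for t3. Mutant cells were taken at t1 only. There were 4 arrays in each of 7 groups, and 3 in the wild-type GFP- group of t3.

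*ato* encodes a basic helix-loop-helix proneural protein that selects chordotonal sense organ precursors from the ectoderm. The GFP- fraction therefore samples the rest of the embryo, including mesoderm, endoderm, blood cell and germ line precursors. In the mesoderm *twi* acts at the head of a cascade that leads through regulators of muscle, visceral and fat body fates to fusion of myoblasts and to the contractile proteins, and GATA factors act in endoderm and blood.

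The sort was checked on 10 genes of sensory precursors (*ato*, *cato*, *sens*, *Rfx*, *dila*, *fd3F*, *nvy*, *ase*, *B-H1* and *ss*), none of which is a member. Their median GFP+ level was 10.1-fold above GFP- at t1, 7.84-fold at t2, 2.86-fold at t3 and 1.88-fold in the mutant. In the mutant *ss* was 8.55-fold, *sens* 6.67-fold and *B-H1* 5.47-fold above GFP-. The other genes except *ato* were between 1.42-fold and 1.98-fold. The paper lists *cato*, *dila*, *Rfx*, *fd3F* and *nvy* as potential *ato* targets, so the mutant median does not check the sort alone. *ato* RNA itself was 18.6-fold higher in mutant GFP+ cells, so its level does not check the allele. GFP+ replicate 3 at t3 stood apart from its group. Over the sensory precursor genes its median log2 level was 7.85, against 8.71 to 9.26 on the other GFP+ arrays at t3 and 6.94 to 7.13 on GFP- arrays. Over the 115 depleted genes its median was 8.33, against 7.42 to 7.61, with GFP- arrays at 8.61 to 8.76. The limit at t3 rests in part on that array. The main t3 summaries over the members are given with and without it, and t3 values of single genes include it. One t2 array, GFP- replicate 4, is called GFP- in its title but GFP+ in its source name, and was used as GFP-.

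**Figure D1:**
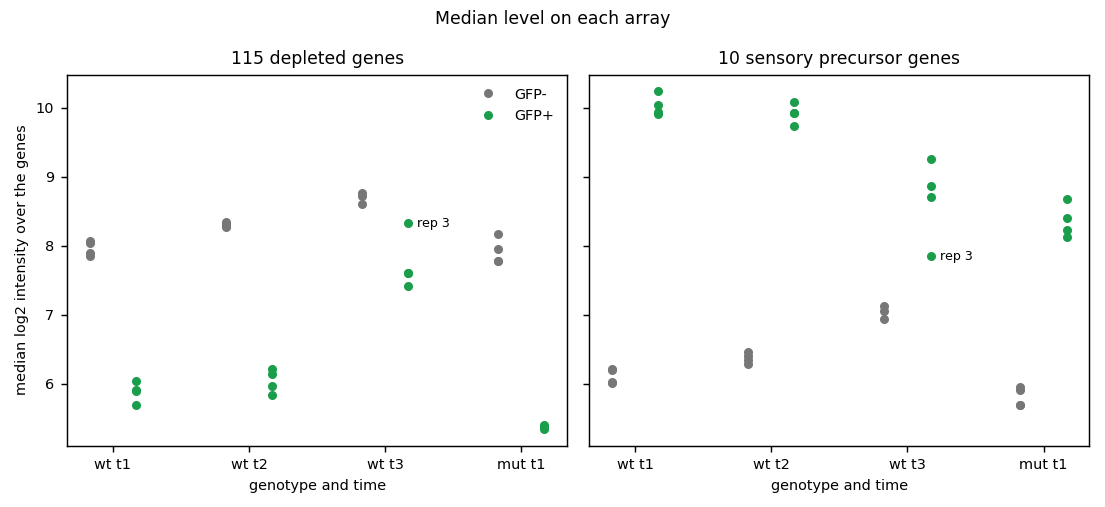
Median log2 intensity on each array (1 point per array) over the 115 depleted genes, left, and over the 10 sensory precursor genes, right, for GFP- (grey) and GFP+ (green) cells by genotype and time. GFP+ replicate 3 at t3 lies at 8.33 and 7.85, nearer to the GFP- arrays than the other GFP+ arrays at that time.

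In wild type the GFP+ level of the 115 genes was, at the median, 26.1% of the GFP- level at t1, 22.2% at t2 and 56.6% at t3. The median E was -1.94 at t1, -2.17 at t2 and -0.82 at t3, beside 0.01 over all genes at each time. E lay between -3.66 and -1 at t1, between -3.58 and -1.01 at t2 and between -1.78 and -0.59 at t3. Depletion was thus shallowest at t3, where E was less negative than at t1 for 112 of the 115 genes. The rule allowed a shallower depletion at t3 than at t1 and t2, so that order is in part set by the choice. Without GFP+ replicate 3 the median E at t3 was -1.0, or 50.1% of the GFP- level, and 111 genes were still less negative at t3 than at t1. In a bulk sample fewer cells that express a gene and less RNA per cell cannot be told apart.

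The members did not all stand clear of the limits. Just inside the t1 limit were *exex* at -1.02 and *tey* at -1.003, and just outside it *Ca-Ma2d* at -0.997 and *spidey* at -0.993. At t2 *Ttc1* at -1.021 and *exex* at -1.007 were inside, and *Shmt* at -0.985 and *Gdh* at -0.942 outside. At t3 *bap* at -0.588 and *CG4829* at -0.585 were inside, and *kcc* at -0.58 and *moody* at -0.578 outside. At the other end, 54 members were at or below -2 at t1 and 70 at t2, and none was at t3. The GFP+ arrays all lay below the GFP- arrays for 114 members at t1 and 115 at t2, which follows largely from the choice (13.9% and 15.8% of all genes do so). At t3 this held for 80 members (12.0% of all genes), and for 110 without GFP+ replicate 3 (17.9% of all genes).

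**Figure D2:**
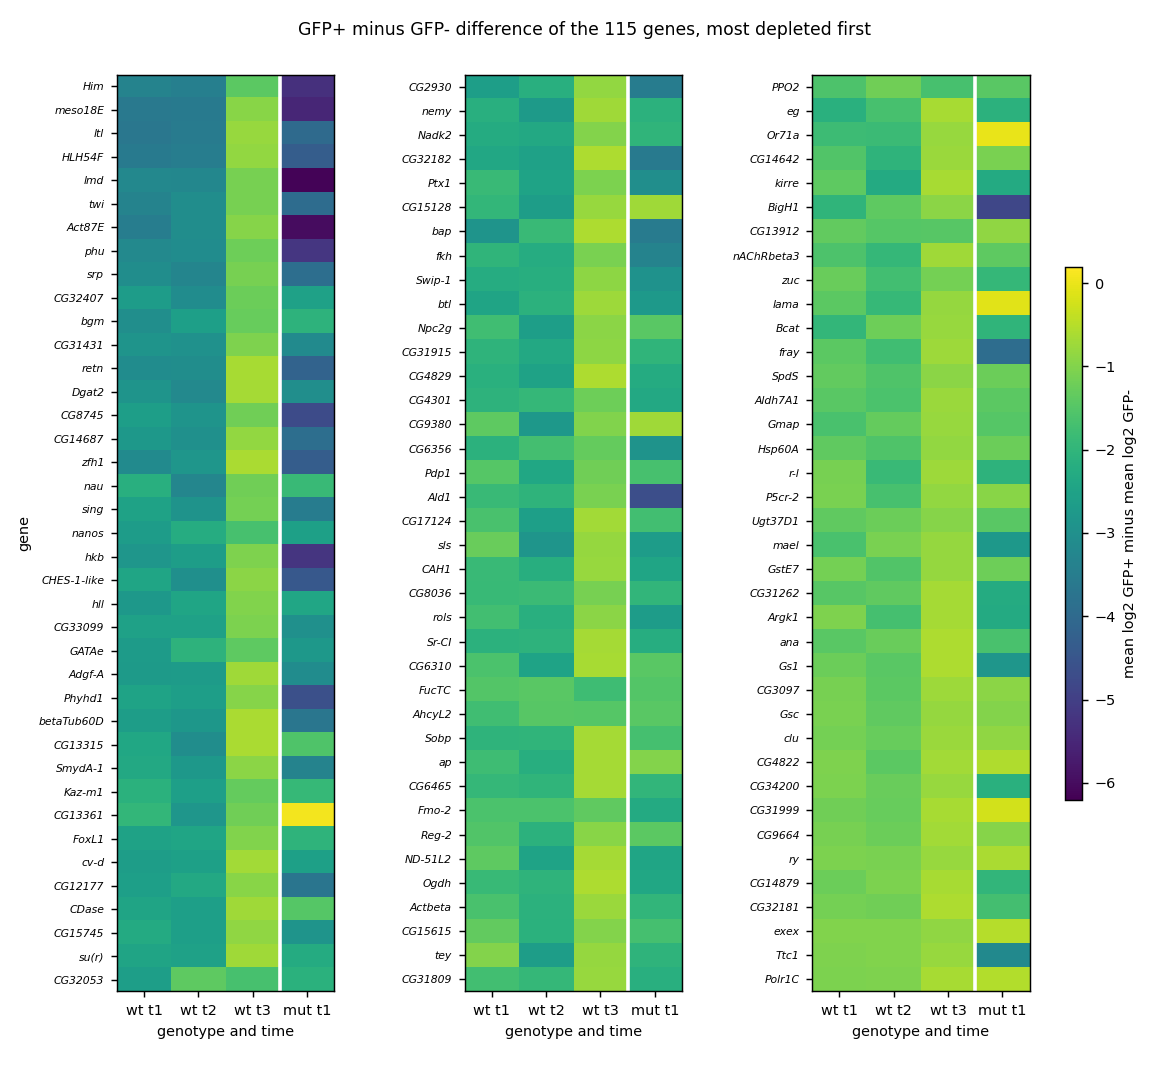
Mean log2 GFP+ minus mean log2 GFP- for each of the 115 genes (rows, ordered by the mean of E over t1, t2 and t3) in wild type (wt) at t1, t2 and t3 and in the *ato* mutant (mut) at t1. The t3 column lies between -1.78 and -0.59, and the mutant column, which did not choose the genes, between -6.14 and 0.10.

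The same depletion was then tested in mutant cells, whose arrays had no part in the choice. Mutant GFP+ cells had lower levels than mutant GFP- cells for 108 of the 115 genes, or 93.9%, where a call needed a change of at least 1.5-fold and a Benjamini-Hochberg adjusted p of at most 0.01 over 18769 probe sets in limma. Over all genes 8.18% were called lower in that comparison. No member was called higher, against 5.89% of all genes, and 7 members were not called. The median difference was -2.16 on the log2 scale, or 22.4% of the GFP- level, beside 0.04 over all genes. The fall among called members ran from 1.54-fold to 70.6-fold, with 70 members at least 4-fold and 33 at least 8-fold lower. All 4 GFP+ arrays lay below all 4 GFP- arrays for 110 members, where 17.1% of all genes do so. In mutant GFP+ cells 27 members, among them *lmd*, *meso18E*, *GATAe* and *nau*, were at a mean below 4.84, the highest median of any array, and *Act87E* was at 4.87. A fold change from so low a level may be understated and depends on the GFP- level, so such folds are not ranked against each other.

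**Figure D3:**
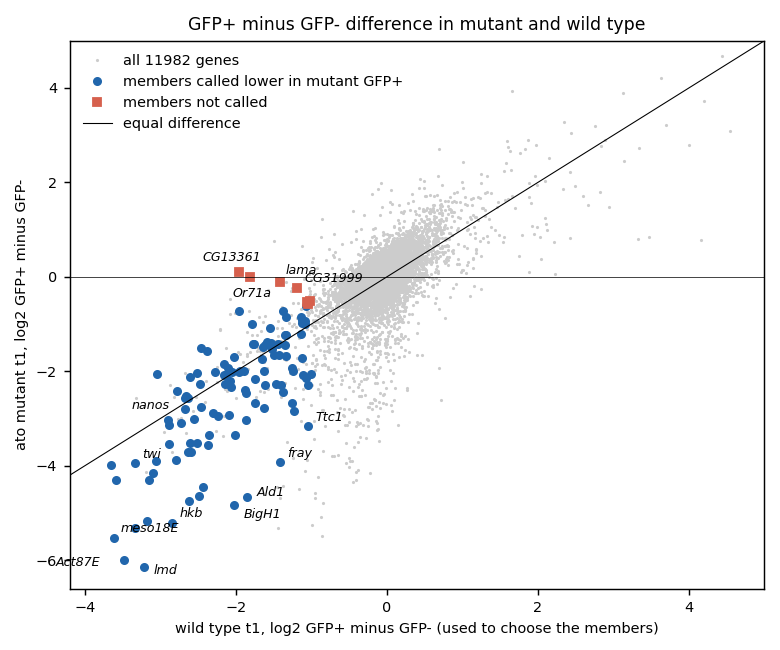
Log2 GFP+ minus GFP- at t1 in the *ato* mutant against wild type, for 11982 genes (grey), 108 members called lower in mutant GFP+ cells (blue circles) and 7 members not called (red squares). The wild-type axis was used to choose the members. *lmd* and *Act87E* lie lowest, and *CG13361*, *Or71a*, *lama* and *CG31999* lie near 0 in the mutant.

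Regulators of transcription made up 21 of the 115 genes, and 20 of them were called lower in mutant GFP+ cells. Several of the most depleted genes of the whole set were among them, and many of the regulators act in the mesoderm. *twi*, the bHLH activator of mesodermal fate, gave GFP+ log2 levels of 5.87, 6.31, 6.47 and 6.07 at wild-type t1 and GFP- levels of 9.73, 9.58, 9.48 and 9.30. Every GFP+ array lay more than 2 units below every GFP- array, and the mean was 10.1-fold lower in GFP+ cells. At t3 the GFP+ levels of *twi* were 6.83, 7.18, 8.22 and 7.34 and the GFP- levels 8.44, 8.37 and 8.69, so that the 3 arrays other than replicate 3 lay more than 1 unit below GFP-. In the mutant *twi* stood at 5.59, 5.76, 5.50 and 5.25 in GFP+ and at 9.53, 9.28, 9.53 and 9.52 in GFP- cells. Mutant GFP+ cells thus had 15.4-fold less *twi* RNA (SE of the log2 difference 0.18, adjusted p = 1.4e-17).

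*lmd*, which specifies fusion-competent myoblasts, was near the array median in mutant GFP+ cells. Its mutant GFP+ levels were 5.01, 4.70, 4.22 and 4.82 and its GFP- levels 10.79, 10.63, 10.79 and 11.12. That is a 70.6-fold difference (SE 0.23, adjusted p = 2.3e-19), and the GFP+ arrays were close to the median of all probe sets, which lies between 4.71 and 4.84 on an array. In wild-type cells at t1 *lmd* read 6.53, 6.95, 7.32 and 7.06 in GFP+ and 10.18, 10.08, 10.10 and 10.32 in GFP-, a 9.25-fold difference. Mutant minus wild type was thus 0.66 log2 units in GFP- cells and -2.27 in GFP+ cells, with no overlap of the arrays in either fraction.

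*Him*, an inhibitor of Mef2 activity in muscle progenitors, and *meso18E*, expressed in the mesoderm, followed the same course. Mutant GFP+ levels of *Him* were 5.40, 5.06, 5.00 and 4.86 against GFP- levels of 10.26, 10.41, 10.35 and 10.53, which was 39.5-fold lower (SE 0.24, adjusted p = 1.5e-17). Wild-type levels at t1 were 6.74, 7.00, 7.31 and 7.08 in GFP+ and 10.53, 10.40, 10.32 and 10.20 in GFP- cells. For *meso18E* mutant GFP+ levels were 5.24, 4.66, 4.51 and 4.61 and GFP- levels 10.31, 10.21, 10.17 and 10.40, a 45.8-fold difference (SE 0.18, adjusted p = 8.8e-21). No array of either gene overlapped between the fractions at t1 in either genotype.

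The remaining mesodermal regulators among the members were lower in mutant GFP+ cells too. Of the 17 measured genes of the early mesoderm list, 14 were called lower and 1 higher. The higher one was *lbl*, not a member, at 0.77 (adjusted p = 0.00229), and *lbe* (-0.01) and *sna* (-0.28) were not called. *zfh1*, a zinc finger and homeodomain factor of several mesodermal derivatives, was 19.8-fold lower (SE 0.16, adjusted p = 2.3e-19), and *HLH54F*, the bHLH factor of the caudal visceral mesoderm, 19.8-fold lower (SE 0.22, adjusted p = 2.8e-16). *bap*, the homeodomain factor of the trunk visceral mesoderm, was 11.6-fold lower (SE 0.19, adjusted p = 1.2e-15). *nau*, the fly homologue of MyoD, was 3.61-fold lower (SE 0.18, adjusted p = 9.8e-10), with mutant GFP+ cells at a mean of 4.43 and GFP- cells at 6.28. In wild type *nau* was 4.48-fold lower at t1 and 9.56-fold at t2, and *bap* went the other way, from 7.42-fold at t1 to 3.64-fold at t2 and 1.50-fold at t3. *retn*, an ARID-domain factor, was 17.9-fold lower in mutant GFP+ cells, and *CHES-1-like*, of the fork head family, 21.7-fold. A second probe set of *CHES-1-like*, at a mean of 4.60, showed no difference above 0.14 log2 units in any group.

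Muscle structure and myoblast fusion were represented by 6 members, all of them called lower in the mutant, with a median of -3.09. This does not hold for muscle genes at large. Over the 26 measured genes of the muscle and fusion list, 10 were called lower and 2 higher, at a median of -0.22. *Act87E*, an actin of muscle, read 5.48, 4.64, 4.58 and 4.78 in mutant GFP+ cells and 10.89, 10.71, 10.86 and 11.02 in mutant GFP- cells. The difference was 63.9-fold (SE 0.21, adjusted p = 3.7e-20). In wild-type GFP+ cells at t1 the same gene read 7.43, 7.95, 8.36 and 7.85, well above its mutant GFP+ level, with GFP- cells at 11.47, 11.32, 11.38 and 11.32. *betaTub60D*, a tubulin of the mesoderm, was 13-fold lower in mutant GFP+ cells (SE 0.20, adjusted p = 1.0e-15).

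The fusion genes among the members were lower as well. Outside the members, *hbs* (-1.2) and *blow* (-1.87) of the muscle and fusion list were called lower in mutant GFP+ cells. *sns* (-0.36), *rst* (-0.3) and *Vrp1* (-0.38) were not called. *sing*, a membrane protein of fusing myoblasts, was 11.4-fold lower in mutant GFP+ cells, *rols*, an adaptor of founder cells, 6.38-fold, and *kirre*, the founder cell adhesion molecule, 4.89-fold. The adjusted p was 2.5e-15, 1.9e-14 and 3.1e-14, respectively. A second probe set of *kirre*, at a mean of 4.80, stayed within 0.21 log2 units between fractions in every group, so the result rests on 1 probe set. *sls*, the titin of fly muscle, was 6.34-fold lower (SE 0.16, adjusted p = 2.6e-14), with mutant GFP+ levels of 6.64, 6.70, 7.11 and 7.14 and GFP- levels of 9.59, 9.23, 9.69 and 9.75. Of the other probe sets of *sls*, 1 met the rule on its own, with E of -1.25, -2.86 and -0.63, and 1, at a mean of 4.24, did not.

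**Figure D4:**
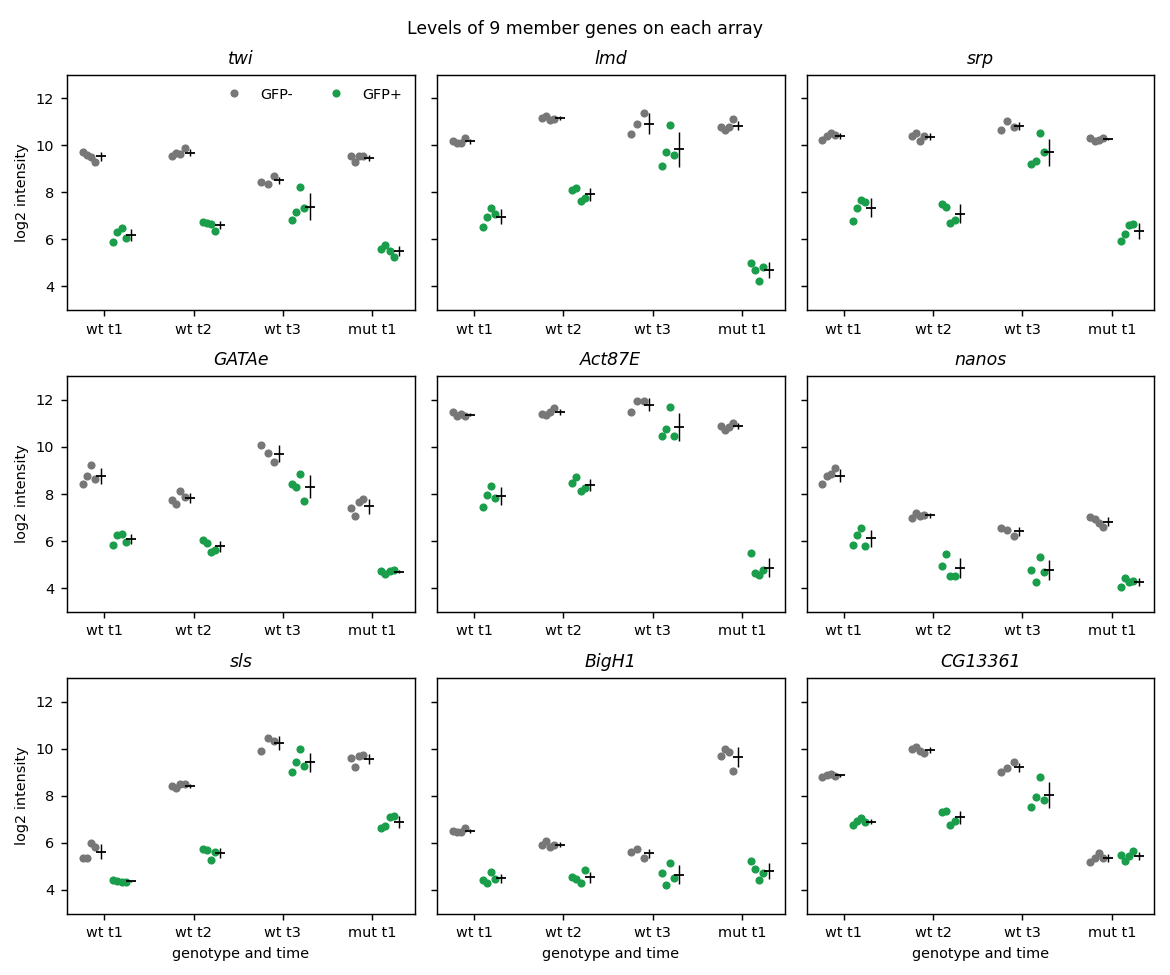
Log2 intensity on each array (points) with the mean and SD of each group (bars, n = 4, and n = 3 for wild-type GFP- at t3) for 9 members in GFP- (grey) and GFP+ (green) cells of wild type (wt) and *ato* mutant (mut). *twi*, *lmd* and *Act87E* reach their lowest levels in mutant GFP+ cells, *sls* rises with time in both fractions, *BigH1* is highest in mutant GFP- cells, and *CG13361* is at 5.17 to 5.64 in both mutant fractions.

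Regulators of endoderm, gut and blood formed a further group. *srp*, the GATA factor of blood, fat body and endoderm, read 5.92, 6.24, 6.60 and 6.63 in mutant GFP+ cells and 10.29, 10.19, 10.23 and 10.29 in GFP- cells, a 14.9-fold difference (SE 0.21, adjusted p = 1.0e-15). *GATAe*, a later endodermal GATA factor, stood at 4.71, 4.60, 4.72 and 4.77 in GFP+ and 7.41, 7.08, 7.66 and 7.80 in GFP- cells, and differed 6.91-fold (SE 0.19, adjusted p = 4.1e-13). *hkb*, which marks both ends of the gut, gave 5.37, 4.19, 4.74 and 4.08 in GFP+ and 9.89, 9.77, 9.77 and 9.81 in GFP- cells, and was 37.1-fold lower (SE 0.23, adjusted p = 1.1e-17). All of these arrays were separated by fraction. *fkh*, a fork head factor of gut and salivary gland, was 10.1-fold lower (SE 0.18, adjusted p = 1.8e-15).

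Blood cell products were few. *PPO2*, the phenoloxidase of crystal cells, was 2.70-fold lower in mutant GFP+ cells (SE 0.25, adjusted p = 2.8e-05). Its E in wild type was -1.58, -1.18 and -1.67, so that it was at least as depleted at t3 as at t1. At t3 its GFP+ levels were 9.38, 9.86, 10.80 and 8.75, the highest on replicate 3, and its GFP- levels 11.67, 11.30 and 11.13. The depletion at t3 is deeper without that array. *btl*, the FGF receptor of the trachea, was the only tracheal gene of the set and was 6.78-fold lower in mutant GFP+ cells (SE 0.15, adjusted p = 1.1e-15).

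Genes of the germ line were represented by 4 members, all called lower in the mutant. They were grouped by role after the members were known, and only *nanos* is in the germ line list. Over the 12 measured genes of that list the median mutant difference was -0.35, with 5 called lower and 1 higher. Its gene *vas* had E of -0.11 at t1 and -0.15 at t3 and was not called in the mutant. *nanos*, the translational regulator of germ cells, read 4.04, 4.45, 4.25 and 4.30 in mutant GFP+ cells and 7.03, 6.94, 6.76 and 6.60 in GFP- cells, a 5.96-fold difference (SE 0.19, adjusted p = 2.2e-12). It kept one of the strongest depletions at t3, with GFP+ levels of 4.77, 4.28, 5.33 and 4.67 against 6.57, 6.46 and 6.22, or 3.16-fold. *BigH1*, the germ line linker histone, was 28.4-fold lower in mutant GFP+ cells (SE 0.18, adjusted p = 1.4e-19) and only 4.04-fold lower in wild type at t1. *zuc* and *mael*, both of the piRNA pathway and named after their values were seen, had differences of -1.93 and -2.78 in the mutant.

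Metabolic enzymes were the largest group with named functions, with 25 members, all called lower in the mutant at a median of -2.07. *bgm*, an acyl-CoA synthetase, was 4.17-fold lower in mutant GFP+ cells (SE 0.18, adjusted p = 5.8e-11), and *Dgat2*, a diacylglycerol acyltransferase, 8.25-fold (SE 0.19, adjusted p = 5.9e-14). *Ald1*, the glycolytic aldolase, was 25.4-fold lower (SE 0.19, adjusted p = 8.2e-19), where wild type at t1 had 3.60-fold. A second probe set of *Ald1*, at a mean of 6.03, differed by -0.21 in the mutant. *Phyhd1* was 24.9-fold lower (SE 0.20, adjusted p = 6.8e-18). Of 34 members known by a CG number only, 31 were called lower, among them *CG8745* at 26.8-fold. Further members among the 20 with the lowest mean E were *ltl*, *phu*, *CG32407*, *CG31431* and *CG14687*, at 15.8-fold, 36.1-fold, 5.77-fold, 8.76-fold and 14.7-fold lower in mutant GFP+ cells.

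The 7 members not called in the mutant were of different kinds. *CG13361* was low in both fractions, with GFP+ levels of 5.50, 5.23, 5.46 and 5.64 and GFP- levels of 5.17, 5.34, 5.59 and 5.34, a difference of 0.10 (SE 0.16, adjusted p = 0.757). In wild type at t1 its GFP- levels were 8.79, 8.90, 8.93 and 8.85. *Or71a*, an odorant receptor gene, was likewise low in both, at 4.33, 4.53, 4.78 and 4.80 in GFP+ and 4.49, 4.85, 4.63 and 4.52 in GFP- cells (difference -0.01, SE 0.21, adjusted p = 0.98). Both genes thus had lower GFP- levels in the mutant than on any wild-type GFP- array.

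*lama*, in contrast, was high in both mutant fractions, at 8.92, 8.78, 9.13 and 9.10 in GFP+ and 9.07, 9.13, 9.08 and 9.08 in GFP- cells (difference -0.10, SE 0.14, adjusted p = 0.68). Its wild-type GFP+ levels at t1 were 7.62, 7.63, 7.95 and 8.18, below every mutant GFP+ array. *CG31999* differed by -0.23 (SE 0.12, adjusted p = 0.188) and *CG4822* by -0.57 (SE 0.22, adjusted p = 0.0519). *exex*, a homeodomain factor of motor neurons, and *Polr1C*, a subunit shared by RNA polymerases, had adjusted p values of 0.00674 and 6.0e-05 but changes of 1.43-fold and 1.44-fold, below the fold limit.

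Mutant GFP+ cells had a deeper depletion than wild-type GFP+ cells at t1 for 70 of the 115 genes, by at least 1 log2 unit for 29 of them, and a shallower one by at least 1 unit for 4. Because the wild-type values chose the genes, this comparison is given without a test. In wild-type GFP+ cells at t1, 16 members were at a mean below 4.84, against 27 in mutant GFP+ cells. The labels give smaller cell numbers for GFP+ sorts from mutant embryos, and the number of cells sorted and the genotype cannot be told apart.

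The lists of cell type genes place the members among their peers. Of 17 measured early mesoderm regulators 8 are members, 14 were called lower in mutant GFP+ cells and 1 higher, with a median of -3.54. Over all genes 8.18% were called lower and 5.89% higher, with a median of 0.04, and the counts of every list are to be read beside these shares. Their non-members include *bin* and *htl*, with E of -3.19 and -1.44 at t1 but -0.06 and -0.30 at t3, and mutant differences of -4.14 (adjusted p = 5.4e-17) and -5.32 (adjusted p = 3.4e-22). *sna*, an early mesodermal repressor, was at -0.28 in the mutant (adjusted p = 0.107). Of 7 visceral mesoderm genes 2 are members, 6 were called lower and none higher. Of 26 genes of myoblast fusion and muscle 6 are members, 10 were called lower and 2 higher, with a median of -0.22.

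The lists of other tissues were mixed. Of 11 genes of endoderm and gut 4 are members, 7 were called lower and 1 higher, and of 6 salivary gland genes 2 are members, 5 were called lower and none higher. The haemocyte list had 17 measured genes with 2 members, 6 called lower and 1 higher. The germ line list had 12 with 1 member, 5 called lower and 1 higher, and the tracheal list 6 with 1 member, called lower, and 2 genes called higher. A further 6 lists hold no member, and their calls went in both directions. Of 5 glial genes 4 were called lower and 1 higher (median -1.87), whereas of 7 epidermal genes 5 were called higher and none lower (median 0.96). Of 13 genes of amnioserosa and dorsal ectoderm 5 were called higher and 2 lower, and of 18 of neuroblasts and ventral nerve cord 5 higher and 4 lower. Of 10 basement membrane genes 2 were called lower and 1 higher, and of 5 of mesodermal FGF signalling 2 lower and 2 higher. A gene could stand in more than 1 list, as *srp*, *fkh*, *hkb*, *bap* and *HLH54F* do.

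Another 91 genes were at or below -1 at t1 and t2 but missed the limit at t3, with median E of -1.71, -1.82 and -0.30. Of these 81, or 89.0%, were called lower in mutant GFP+ cells at a median of -1.74. The share among the members was 93.9%, and the difference between these shares was not tested.

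Levels also changed with time, and the tests here used the mean of both fractions, not the difference that chose the genes. The GFP+ level enters both, and the rule allowed a shallower depletion at t3. A rise of the mean to t3 is therefore not fully independent of the choice. From t1 to t2, 31 of the 115 genes were called higher (27.0%, beside 4.32% of all genes) and 18 lower (15.7%, beside 10.5%). Under centring on ribosomal protein genes these counts became 20 higher and 24 lower, so the balance of rises and falls depends on the scaling. *sls* rose most, by 4.03-fold (adjusted p = 3.4e-15). *CG14687* rose 3.40-fold, *CHES-1-like* 2.21-fold, *zfh1* 2.12-fold and *Kaz-m1* 2.06-fold, with adjusted p values between 7.6e-12 and 7.5e-07.

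Among the falls from t1 to t2 *nanos* was first, at 2.78-fold (adjusted p = 1.2e-10). Its GFP- levels were 8.41, 8.78, 8.84 and 9.11 at t1 and 6.99, 7.20, 7.06 and 7.12 at t2, with no overlap. *CG32053* fell 2.30-fold, *Ald1* 2.18-fold, *Ogdh*, a subunit of the oxoglutarate dehydrogenase complex, 2.09-fold and *bgm* 2.02-fold, with adjusted p values between 5.5e-06 and 4.5e-09. The GFP- arrays of *CG32053* at t2 were widely spread, at 5.66, 5.74, 7.31 and 6.73 (SD 0.8).

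From t2 to t3, 68 members were called higher (59.1%, beside 16.0% of all genes) and 8 lower (6.96%, beside 11.3%). A rise was also seen outside the members. Of the 91 genes that missed only the limit at t3, 54 were called higher and 7 lower. Their median change was 1.0 log2 units, beside 0.89 for the members. Those 91 genes were chosen by E too, for a difference that was large at t2 and small at t3. A rise in GFP+ cells is therefore in part set by that choice, and their medians were 1.81 in GFP+ and 0.15 in GFP- cells. The comparison cannot show how general the rise is. The 5 largest rises among members were all over 10-fold. *CG4822* rose 16-fold (adjusted p = 3.6e-19) and *fray*, a Ste20-like kinase, 15.9-fold (adjusted p = 2.0e-18). *Argk1*, arginine kinase, rose 15.1-fold (adjusted p = 6.0e-19). Its GFP- levels were 8.15, 8.28, 8.28 and 8.15 at t2 and 11.71, 12.05 and 11.11 at t3, and its GFP+ levels 6.66, 6.55, 6.48 and 6.42 at t2 and 11.08, 11.38, 11.06 and 10.32 at t3. Both fractions rose without overlap, and the gap between them narrowed. *CG8036* rose 13.7-fold (adjusted p = 8.6e-22) and *Ald1* 10.7-fold (adjusted p = 2.8e-19).

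Of the 25 metabolic enzymes 19 were called higher from t2 to t3 and 2 lower, and of the 6 genes of muscle structure and fusion 5 were called higher and none lower. *betaTub60D* rose 6.33-fold, *rols* 7.45-fold and *sls* 7.09-fold. *PPO2* rose 8.70-fold (adjusted p = 1.7e-15) and *GATAe* 4.63-fold (adjusted p = 1.5e-14). The regulators of transcription were divided, with 10 of 21 called higher and 2 lower. *Polr1C* fell most, by 2.09-fold (adjusted p = 3.8e-14). *bap* and *Him* fell 1.86-fold each (adjusted p = 2.2e-06 and 5.8e-05), and *ND-51L2* and *CG32182* fell 1.81-fold each (adjusted p = 1.7e-08 and 3.1e-06). *twi* stood 1.14-fold lower at t3 than at t2 (adjusted p = 0.187), with GFP- levels of 9.53, 9.67, 9.61 and 9.89 at t2 above all 3 at t3.

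The rise from t2 to t3 was not equal in the fractions. Of the 68 members called higher, 64 rose more in GFP+ than in GFP- cells, and 63 were also higher in GFP- cells. In GFP+ cells 109 of 115 members were higher at t3 than at t2, at a median of 1.51 log2 units (-0.09 over all genes), and in GFP- cells 68 were, at a median of 0.31. Without GFP+ replicate 3 the GFP+ values were 103 genes and a median of 1.29. These single-fraction values carry no test, since their difference entered the rule. Over the same interval the median of the sensory precursor genes fell on GFP+ arrays, from between 9.74 and 10.08 to between 7.85 and 9.26. On GFP- arrays it rose from between 6.29 and 6.46 to between 6.94 and 7.13. The genes were split, as mean GFP+ levels fell for *ato* (12.49 to 8.1), *cato*, *sens*, *nvy* and *ss*. They rose for *fd3F* (6.45 to 8.24), *dila*, *Rfx*, *B-H1* and *ase*. Whether the make-up of the GFP+ fraction has a part in the members' rise was not tested. From t1 to t2 the medians of the members moved by 0.04 in GFP+ and 0.17 in GFP- cells.

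Genotype was compared at t1, again on the mean of both fractions. Of the 115 genes 25 were called lower in the mutant (21.7%, beside 2.70% of all genes) and 7 higher (6.09%, beside 4.28%). The rule required a measurable level in wild-type GFP- cells at t1, which are one side of this test, and made no such demand of the mutant. A gene silent in the mutant could therefore be a member and a gene silent in wild type could not, so the excess of lower calls is in part set by the rule. *Actbeta*, an activin-type ligand, differed most. It read 6.80, 6.73, 6.86 and 7.62 in mutant GFP- cells against 10.35, 10.44, 10.68 and 10.22 in wild type, and 4.72, 4.95, 5.08 and 5.30 in mutant GFP+ cells against 8.71, 8.80, 8.80 and 8.84. Both fractions were lower without overlap, by 12.1-fold on average (SE of the log2 difference 0.14, adjusted p = 3.8e-19). *CG13361* was 5.56-fold lower (adjusted p = 5.8e-17), *hkb* 4.23-fold (adjusted p = 1.2e-11), *CG9380* 3.99-fold (adjusted p = 1.4e-15) and *nanos* 3.74-fold (adjusted p = 1.3e-12). *Or71a* was 3.49-fold and *GATAe* 2.51-fold lower (adjusted p = 2.3e-11 and 3.5e-09).

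Among the genes called higher in the mutant, *sls* stood at 9.59, 9.23, 9.69 and 9.75 in mutant GFP- cells and at 5.36, 5.34, 5.99 and 5.81 in wild type at t1, and was 9.45-fold higher over both fractions (adjusted p = 7.8e-20). *BigH1* stood at 9.68, 9.98, 9.87 and 9.04 in mutant GFP- cells and at 6.50, 6.45, 6.46 and 6.62 in wild type, with GFP+ levels of 5.24, 4.91, 4.42 and 4.71 and of 4.42, 4.30, 4.78 and 4.47. Its 3.32-fold rise over both fractions (adjusted p = 2.0e-12) thus lay in the GFP- arrays, while the GFP+ arrays overlapped. *Gs1*, a glutamine synthetase, was 2.60-fold higher (adjusted p = 3.6e-10) and *CG31999* 1.99-fold (adjusted p = 1.5e-10). *fray* was 2.33-fold higher (adjusted p = 7.7e-07), with GFP- levels of 8.58, 8.89, 9.02 and 8.28 against 5.94, 5.90, 6.26 and 6.79.

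**Figure D5:**
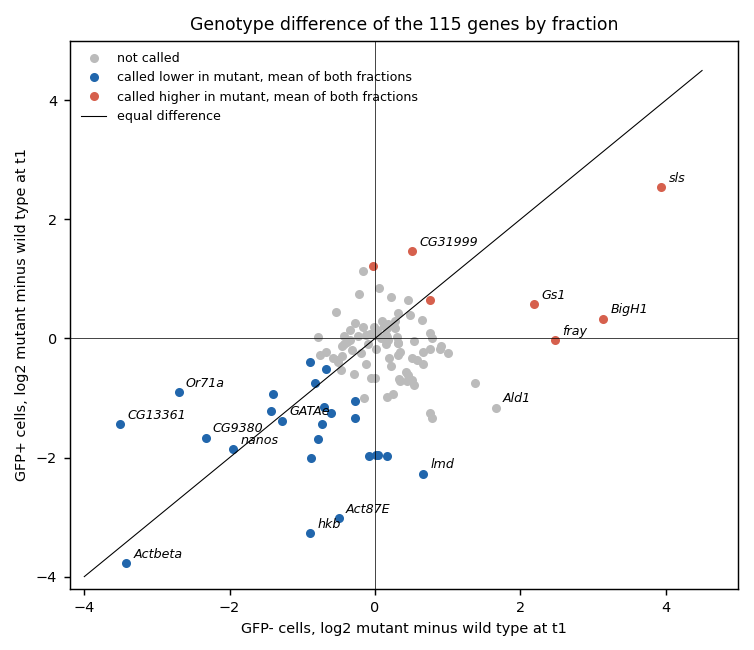
Log2 mutant minus wild type at t1 for the 115 genes in GFP- cells (x axis) and GFP+ cells (y axis), coloured by the limma call on the mean of both fractions (25 lower, 7 higher, 83 not called). *Actbeta* and *sls* moved in both fractions, *BigH1* and *fray* in GFP- cells, and *Act87E*, *hkb* and *lmd* mainly in GFP+ cells.

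Of the 25 genes called lower, 16 had a more negative difference in GFP+ than in GFP- cells, as had 70 of all 115 members, a comparison that contains the wild-type values of E and carries no test. Of the 21 regulators of transcription 9 were called lower in the mutant and none higher. *lmd* differed by -2.27 log2 units (mutant minus wild type) in GFP+ cells and by 0.66 in GFP- cells, and *Act87E* differed by -3.02 and -0.50 and *hkb* by -3.27 and -0.89, respectively. Over all members the median was -0.23 in GFP+ and 0.04 in GFP- cells, beside -0.01 and -0.04 over all genes. By chromosome arm in RefSeq, 10 of the 25 genes called lower are on 3R and 7 on X, where 35 and 16 of the 115 members lie. The *ato* allele and any other difference between the lines cannot be told apart.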

How the data were processed

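Cells sorted from dissociated embryos were hybridised to Affymetrix *Drosophila* 2.0 arrays, described in the methods as independent samples. The deposited values are log2 intensities that the authors made by robust multi-array averaging (RMA) with quantile normalisation. The labels name a one-cycle and the methods a 2-cycle labelling, and no raw intensities were used here. Array medians lie between 4.71 and 4.84, and no detection calls were used, so a low level may be background. The number of arrays limits the precision.

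Of 18952 probe sets, 183 controls were left out. Of the 18769 tested, 13647 name 1 gene in the platform table, 402 several and 4720 none. RefSeq (Release 6) gave current names and arms for 114 members. Promoter sequences were not analysed here.

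One limma 3.58.1 model (R 4.3.3) with 8 group means was fitted to 31 arrays, with Benjamini-Hochberg adjustment over all probe sets. A call needed 1.5-fold and an adjusted p of at most 0.01. All adjusted p values are limma's. At t3 the fractions have 4 and 3 arrays, so their mean and difference are not fully independent.

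The members, the 15 gene lists (193 entries, 170 measured) and the tests were chosen with earlier results of these data known, and the grouping by role was made after the members were known. Genes named are *ato* and the sensory check genes, the 20 members with the lowest mean E, every member in a list, the 10 lowest and 5 highest mutant differences, the 5 largest called rises and falls of each other comparison, and those nearest the limits. Others were named after their values were seen.

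GFP+ and GFP- groups share replicate numbers. In the mutant, deviations of same-numbered arrays correlated at 0.213 to 0.299, so the numbers were taken as pairs there, and a replicate block was an alternative. Other alternatives were a fit of the groups compared only, no dim probe sets (a mean log2 level of 6 or more in at least 1 group required), cyclic loess, centring on the ribosomal protein genes, trend and robust estimation, array weights, a limit of 0.05, a test against 1.5-fold itself (treat), other forms of the rule, and each array left out. The steps were tested on simulated data first.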

Additional observations from a re-analysis of the deposited data

Results flagged for a closer look

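Of 126 sets of 4 arrays (17 genes whose arrays are given, and the median over all members), 4 held an array whose gap to its nearest neighbour exceeded Dixon's 95% critical value, as a share of the range. Chance alone gives about 1 in 20. *meso18E* stood at 9.60 on GFP+ replicate 3 at t3, against 8.81 to 8.90 on the others, and that is the array that stands apart in the medians. *hkb* stood at 10.55 on wild-type GFP- replicate 1 at t1 against 10.75 to 10.76, *twi* at 9.28 on mutant GFP- replicate 2 against 9.52 to 9.53, and *Actbeta* at 7.62 on mutant GFP- replicate 4 against 6.73 to 6.86. None of these arrays reaches the other fraction for its gene.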

How the results depend on the processing

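The count of 108 members called lower in mutant GFP+ cells lay between 96 (treat) and 110 (cyclic loess) in all alternatives, and none was called higher in any. With the replicate block it was 108, both as a random term over all arrays and as a fixed term on the mutant arrays, and the block changed no other count of calls in the 4 tests. The median mutant difference was -2.27 under cyclic loess and -2.02 under ribosomal centring, which moved the median of all genes from 0.04 to 0.18, and lay between -2.23 and -2.13 with an array left out. Treat lowered the counts to 5 higher and 4 lower from t1 to t2, to 1 lower from t2 to t3, and to 4 higher and 11 lower in the mutant. Ribosomal centring gave 20 members higher from t1 to t2. With an array left out, the counts were 29 to 32 higher and 15 to 19 lower from t1 to t2, 66 to 70 and 7 to 9 from t2 to t3, and 6 to 8 and 23 to 26 between genotypes, and 107 to 109 lower in mutant GFP+ cells.

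Differences near 0 in the mutant changed sign. *CG13361* was at -0.02 under cyclic loess, *lama* at 0.03 under ribosomal centring, and *Or71a* at 0.12 under ribosomal centring, 0.06 without mutant GFP- replicate 2, 0.08 without GFP+ replicate 1 and 0.01 without GFP+ replicate 2, in a range from -0.08 to 0.08 over the mutant arrays left out. Treat also ended the calls of *PPO2* in the mutant, of *CG32053*, *Kaz-m1* and *bgm* from t1 to t2, of *CG32182*, *Him*, *ND-51L2* and *bap* from t2 to t3, and of *fray* between genotypes. *exex* passed both limits under cyclic loess and without mutant GFP- replicate 2 or GFP+ replicate 3.

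Membership depended more on the settings. With E at or below -1 at all 3 times 34 genes remained, with ribosomal centring 81 of the 115, and with cyclic loess 110. With a wild-type array left out the rule gave 95 to 134 genes, the highest without GFP+ replicate 3 at t3, which kept all 115, and the lowest without GFP+ replicate 4 at t3, which kept 94. Of 11 further probe sets of 10 members, 1 met the rule and 7 were below 0 at all 3 times.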
